A study of Mus musculus with 12 samples.

Results

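The genes described here are 10 parts of the mammalian circadian clock, measured by RNA sequencing in mouse hearts. They were taken by symbol from the deposited table of read counts: *Arntl*, *Clock*, *Per1*, *Per2*, *Per3*, *Cry1*, *Cry2*, *Nr1d1*, *Nr1d2* and *Dbp*. They are 10 of 19308 genes in the table, and all 10 were among the 14094 genes that passed the filter on low counts. The study asked how loss of *Fabp3*, which encodes a fatty acid binding protein of heart and muscle, changes the heart under pressure overload. Its 12 hearts came from C57BL/6 mice operated at 8 weeks of age and collected 1 week later, 3 hearts in each of 4 groups: WT sham, F3-KO sham, WT TAC and F3-KO TAC. In TAC (transverse aortic constriction) the aortic arch is narrowed by a ligature, so that the left ventricle ejects against a raised pressure, whereas sham mice served as the operated controls. F3-KO mice carry a global CRISPR-Cas9 knockout of *Fabp3*, so the gene is targeted in all tissues and not only in the heart. According to the study's methods the knockout mice lived in a regular light and dark cycle, and mice were killed either by pentobarbital or by cervical dislocation, without saying which was used for these hearts. The hour of collection is not given in the sources used here, so the samples cannot be placed in circadian time by their labels, and a difference in hour between groups cannot be told apart from an effect of surgery or genotype.

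The clock is a feedback loop of transcription that runs in nearly every cell. ARNTL (also called BMAL1) and CLOCK form a dimer that binds E-boxes and switches on the *Per*, *Cry*, *Nr1d* and *Dbp* genes. PER and CRY proteins return to block this dimer, and NR1D1 and NR1D2 (REV-ERBs) repress *Arntl* through ROR elements, so that *Arntl* RNA peaks at about the opposite time of day to its targets. DBP binds D-boxes and passes the rhythm on to other genes, and in the heart the loop is known for setting daily rhythms of metabolism and of ion channels. A heart taken at an earlier or later hour therefore has a different combination of these RNAs, which is the question put to the data here: whether the clock genes differ between the groups or mainly between single hearts.

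The start regions of the members were searched for the letters of these elements. RefSeq windows on GRCm38.p6, each of 300 bases (250 before the transcription start and 50 after it), were found for 9 members, in 13 windows. The motifs were the E-box CACGTG, the E-prime-box CACGTT, the D-box TTATGTAA or TTACGTAA, the ROR element TAGGTCA or TGGGTCA and the cAMP element TGACGTCA on both strands, and none of these spellings contains another. The 4 windows printed here are those of *Per1* (first start), *Cry1*, *Per3* and *Arntl* (second start), which between them hold each kind of element that was found. Capitals mark the motif, and each sequence reads 5′ to 3′ on the strand of the gene.
*Per1*, chr11:69098699-69098998, plus strand, E-box: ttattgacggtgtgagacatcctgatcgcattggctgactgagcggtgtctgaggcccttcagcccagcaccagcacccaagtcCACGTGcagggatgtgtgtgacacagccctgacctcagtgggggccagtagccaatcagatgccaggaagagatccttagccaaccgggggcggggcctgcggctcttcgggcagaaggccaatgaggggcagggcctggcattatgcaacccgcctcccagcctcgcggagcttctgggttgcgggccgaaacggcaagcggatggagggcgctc
*Cry1*, chr10:85185005-85185304, minus strand, E-prime-box (opposite strand) and E-box: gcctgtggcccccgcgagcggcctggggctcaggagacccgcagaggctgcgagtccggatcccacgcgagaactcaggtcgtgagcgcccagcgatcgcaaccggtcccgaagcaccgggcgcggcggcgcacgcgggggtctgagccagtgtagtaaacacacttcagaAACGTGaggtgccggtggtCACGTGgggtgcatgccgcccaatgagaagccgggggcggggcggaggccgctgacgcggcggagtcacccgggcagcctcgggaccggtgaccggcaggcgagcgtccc
*Per3*, chr4:151044616-151044915, minus strand, 2 D-boxes: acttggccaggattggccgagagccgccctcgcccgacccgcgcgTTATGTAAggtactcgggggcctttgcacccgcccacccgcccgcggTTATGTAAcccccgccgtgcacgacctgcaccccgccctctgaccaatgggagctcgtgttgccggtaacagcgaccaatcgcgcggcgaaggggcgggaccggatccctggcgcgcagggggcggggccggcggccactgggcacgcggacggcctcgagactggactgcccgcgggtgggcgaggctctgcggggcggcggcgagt
*Arntl*, chr7:113207261-113207560, plus strand, ROR element: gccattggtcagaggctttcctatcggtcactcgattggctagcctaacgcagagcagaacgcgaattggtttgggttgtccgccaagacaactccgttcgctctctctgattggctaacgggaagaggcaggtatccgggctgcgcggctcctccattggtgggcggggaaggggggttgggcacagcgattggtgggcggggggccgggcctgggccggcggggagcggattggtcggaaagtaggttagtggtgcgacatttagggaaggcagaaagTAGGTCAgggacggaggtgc
Counted from the transcription start, the E-box of *Per1* began at position -166 and that of *Cry1* at -60, the D-boxes of *Per3* began at -205 and -158, and the ROR element of *Arntl* began at 31. An E-prime-box was also found in the windows of *Cry2* and *Nr1d1*, and no element was found in those of *Clock*, *Nr1d2* and *Dbp*. Of all 32851 windows, 7.15% held the E-box, 4.68% the E-prime-box, 1.06% the D-box, 6.45% the ROR element and 1.79% the cAMP element, which no member window held. A match is a stretch of letters and not a measured binding site. Sequence outside the windows was not searched, so a window without a match does not mean that the gene lacks the element.

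Total estimated counts per heart ran from 10424289 to 14371981. Levels of single genes are given in CPM, the count of a gene scaled to the total of its library after TMM normalization. Sums of marker genes are in CPM of the library total, without TMM factors. *Fabp3* separated the genotypes as labelled: it stood at 2120 to 2850 CPM in WT sham, 2890 to 3060 in WT TAC, 1040 to 1090 in F3-KO sham and 1000 to 1140 in F3-KO TAC hearts, a log2 difference of F3-KO minus WT over both surgeries of -1.35 (SE 0.106, edgeR adjusted p = 9.05e-05). The RNA was thus lower but still present in the knockout. Cardiomyocyte markers led the profiles, with 6 of 6 genes detected and summed levels of 44500 to 78400 CPM, and 4 of 5 adipocyte markers were in the table and summed to at most 1.48 CPM.

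The 2 genes of the positive arm differed in how much they varied between hearts, *Arntl* having the widest range of the 10 members and *Clock* the narrowest. *Arntl* (gene 11865), the member of the dimer without which the loop stops, stood at 6.22, 10.4 and 2.78 CPM in WT sham, 12.6, 3.72 and 2.66 in F3-KO sham, 17.1, 1.94 and 6.9 in WT TAC, and 11.1, 8.1 and 8.74 in F3-KO TAC hearts (replicates 1 to 3). The highest heart was 8.83-fold above the lowest, and both were WT TAC hearts, against 1.68-fold for *Clock*. *Clock* (gene 12753), its partner, stood at 44.7, 46.7 and 37.6 CPM in WT sham, 46.9, 38.1 and 32.4 in F3-KO sham, 46.8, 35.5 and 45.1 in WT TAC, and 53.2, 53.6 and 54.5 in F3-KO TAC hearts. All F3-KO TAC hearts thus lay above the other 9 for *Clock*, by a small margin, while for *Arntl* they lay in the middle of the range.

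The *Per* genes encode repressors of the loop. *Per1* (gene 18626) stood at 165, 91 and 126 CPM in WT sham, 163, 125 and 122 in F3-KO sham, 171, 137 and 120 in WT TAC, and 83.4, 101 and 111 in F3-KO TAC hearts. *Per2* (gene 18627) stood at 36.3, 59 and 39.8 CPM in WT sham, 33.4, 62.7 and 76 in F3-KO sham, 38.9, 51.2 and 40.8 in WT TAC, and 20.7, 30.2 and 41.1 in F3-KO TAC hearts. *Per3* (gene 18628) stood at 84.1, 61.2 and 83.6 CPM in WT sham, 47.5, 81.9 and 76.5 in F3-KO sham, 37.3, 72 and 49.4 in WT TAC, and 34.6, 50.4 and 50.7 in F3-KO TAC hearts. For *Per2* the top hearts were F3-KO sham replicates 3 and 2 and the lowest were 2 F3-KO TAC hearts, but F3-KO sham replicate 1 lay inside the F3-KO TAC range. For *Per1* the F3-KO TAC hearts lay below all WT TAC and all F3-KO sham hearts.

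The *Cry* genes encode the repressors that bind the ARNTL and CLOCK dimer directly. *Cry1* (gene 12952) stood at 10.7, 20.3 and 15.7 CPM in WT sham, 12.1, 19.4 and 22.3 in F3-KO sham, 9.18, 16.7 and 13.4 in WT TAC, and 8.2, 9.25 and 13.3 in F3-KO TAC hearts. *Cry2* (gene 12953) stood at 57.4, 47.2 and 66.6 CPM in WT sham, 40.8, 49.4 and 55.4 in F3-KO sham, 43.1, 44.6 and 44 in WT TAC, and 23.8, 34.5 and 48.5 in F3-KO TAC hearts. The 3 WT TAC hearts were close together for *Cry2* and lay below every WT sham heart, and the groups overlapped for *Cry1*.

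The REV-ERB genes form the second loop. *Nr1d1* (gene 217166) stood at 176, 128 and 172 CPM in WT sham, 152, 49.6 and 44.7 in F3-KO sham, 99.9, 110 and 76.6 in WT TAC, and 115, 111 and 76.3 in F3-KO TAC hearts. F3-KO sham replicates 2 and 3 were the lowest of all 12 hearts, while replicate 1 of the same group lay in the WT sham range. *Nr1d2* (gene 353187) varied less, with 226, 147 and 175 CPM in WT sham, 150, 167 and 172 in F3-KO sham, 107, 148 and 162 in WT TAC, and 127, 134 and 164 in F3-KO TAC hearts. *Thra*, a thyroid hormone receptor gene that overlaps *Nr1d1* in RefSeq, ranged over 68.4 to 104 CPM and stood at 74.8 and 69.8 CPM in the 2 hearts with the lowest *Nr1d1*. *Nr1d1* had estimated counts that were not whole in 12 of 12 hearts, as had *Per3* and *Cry1*, and so had *Dbp* in 11 hearts, *Cry2* and *Nr1d2* in 8 each, *Per2* in 2 and *Arntl* in 1. Reads shared with another gene or copy may enter the values of these 8 members, *Dbp* and *Arntl* included, whereas *Clock* and *Per1* were whole in all hearts.

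*Dbp* (gene 13170), the output factor and the member with the highest level per length, stood at 155, 63.1 and 149 CPM in WT sham, 89.3, 87.4 and 98 in F3-KO sham, 49.8, 152 and 57.2 in WT TAC, and 54.6, 77.4 and 47.9 in F3-KO TAC hearts. WT TAC replicate 2 had the level of the highest WT sham hearts, and WT sham replicate 2 that of the low TAC hearts. The F3-KO TAC hearts lay below the 3 F3-KO sham hearts. *Dbp* overlaps *Sphk2* in RefSeq, which ranged over only 26.3 to 41.1 CPM.

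**Figure D1:**
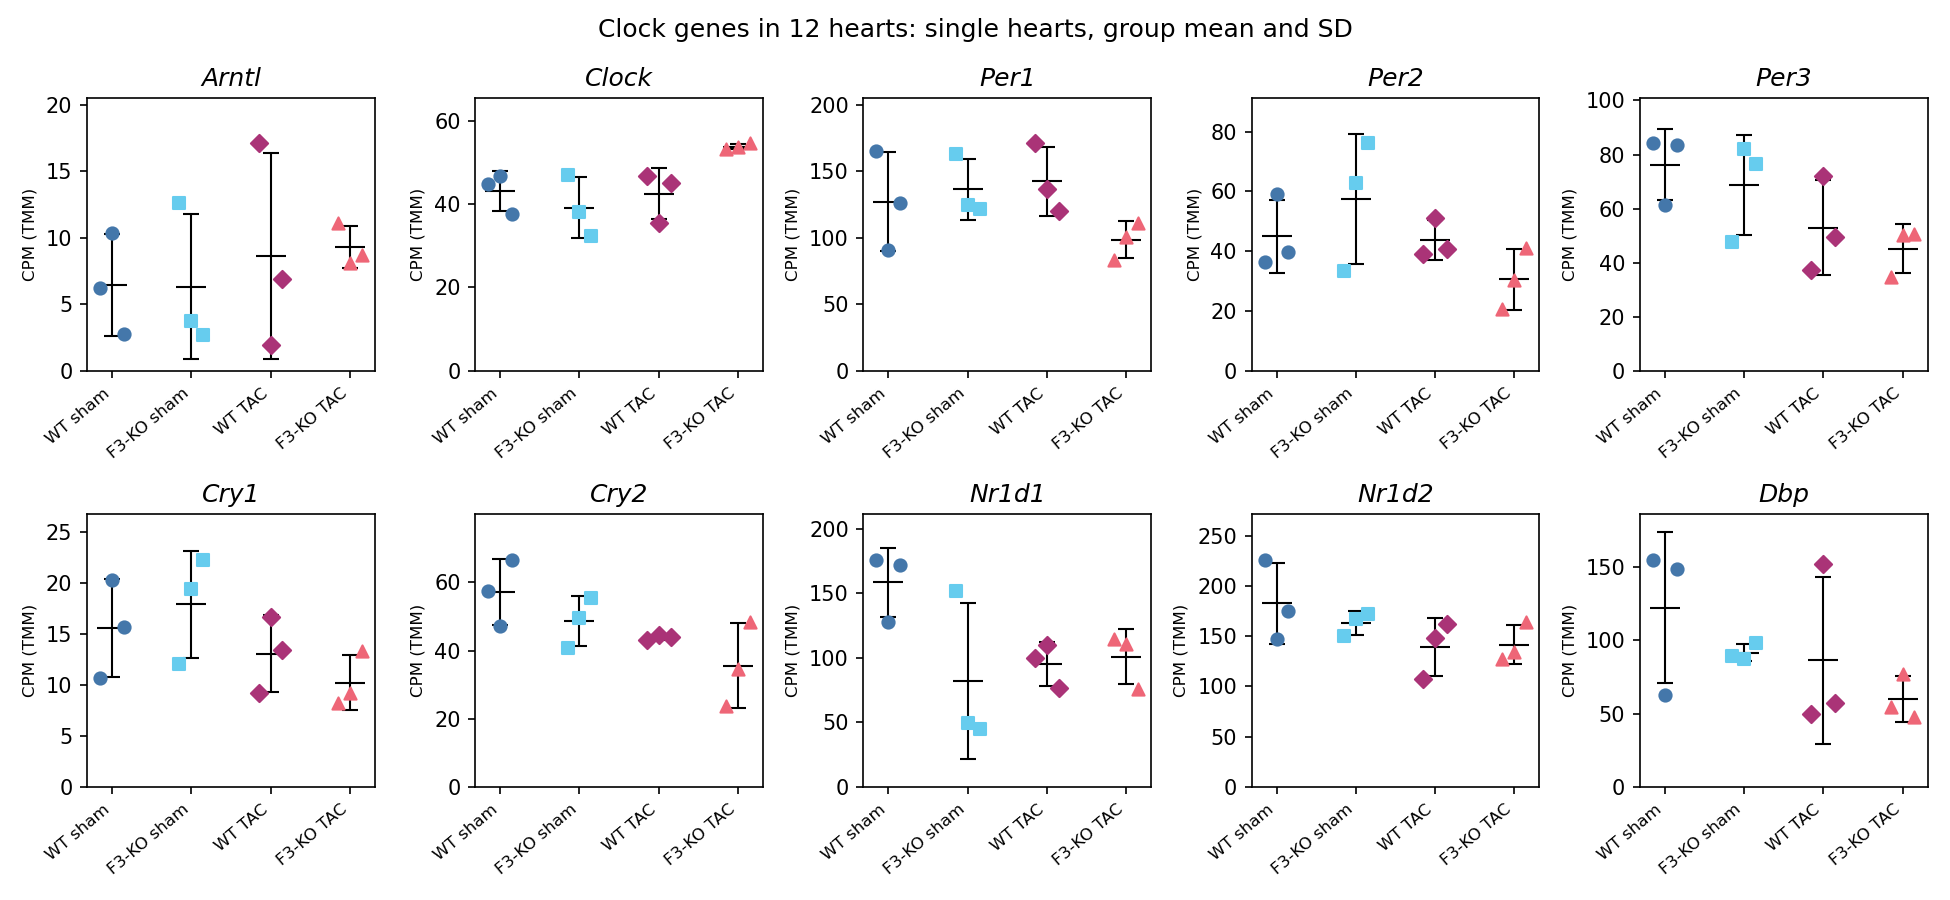
Level of each clock gene in CPM (vertical axis, from 0) in the 12 hearts by group, with each point 1 heart, the horizontal line the group mean and the whiskers 1 SD (n = 3). *Arntl*, *Nr1d1* and *Dbp* scatter widely inside groups, and the 3 F3-KO TAC hearts sit close together for *Clock*, at 53.2 to 54.5 CPM.

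Per kilobase of the longest annotated coding transcript, the mean level over the 12 hearts was 49 ± 22.1 CPM (SD, n = 12) for *Dbp*, 40.1 ± 15.9 for *Nr1d1*, 33.6 ± 6.32 for *Nr1d2* and 27 ± 6.11 for *Per1*. These were followed by *Cry2* at 11.6 ± 2.76, *Per3* at 10.1 ± 3.03 and *Per2* at 7.57 ± 2.64 CPM per kilobase. *Cry1* at 4.69 ± 1.55, *Clock* at 4.58 ± 0.752 and *Arntl* at 2.58 ± 1.55 came last. Neighbours in this order differed by less than the larger of their 2 SDs, except *Nr1d2* and *Per1*, *Per1* and *Cry2*, *Per2* and *Cry1*, and *Clock* and *Arntl*. In these hearts the output and REV-ERB genes were thus the most abundant members per length and *Arntl* the least, while *Clock* was close to *Cry1*.

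The spread inside the groups was large for several members. The within-group SD of log2 CPM was 1.07 for *Arntl*, larger than that of 96.3% of the genes tested, 0.599 for *Dbp* (87.9%) and 0.547 for *Nr1d1* (85.5%). It was 0.448 for *Per2*, 0.427 for *Cry1* and 0.38 for *Per3*, against a median of 0.251 over all genes tested. *Cry2* (0.305) and *Per1* (0.295) lay closer to that median, and *Nr1d2* (0.247) and *Clock* (0.19) lay below it. *Arntl* is also the least counted member, with 22 to 218 counts per heart, but edgeR's estimate of its biological variation, 0.591, was above the 0.268 that the trend gives for genes at its level.

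**Figure D2:**
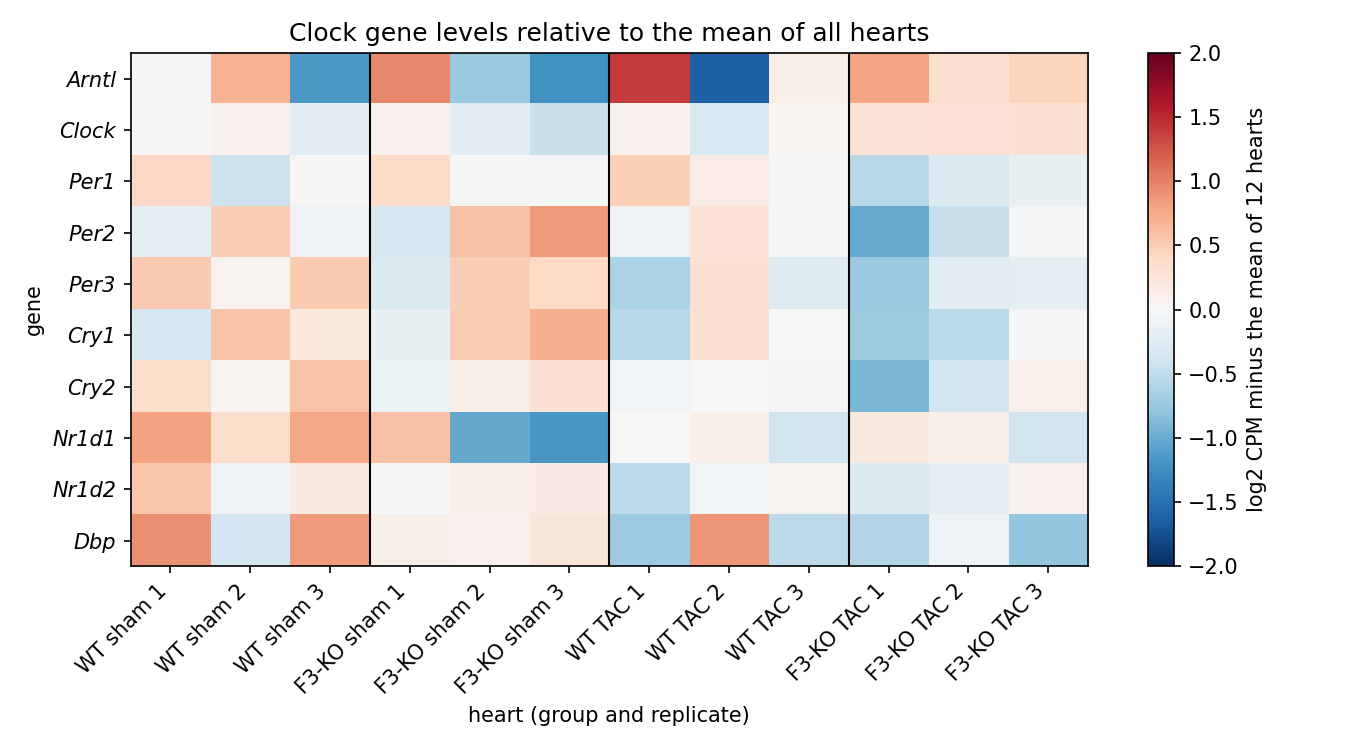
Log2 CPM of each clock gene in each heart minus its mean over the 12 hearts (colour scale from -2 to 2), with hearts in columns by group and genes in rows. *Arntl* changes sign between hearts of the same group in 3 of the 4 groups, and *Nr1d1* is low in F3-KO sham replicates 2 and 3.

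Between groups, no member passed the test in any of the 7 comparisons (edgeR's quasi-likelihood test, Benjamini-Hochberg adjusted p under 0.05 over all genes tested), and none passed by DESeq2 or limma. The comparison of TAC with sham over both genotypes came closest. *Per3* had a log2 difference of -0.57 (SE 0.187, unadjusted p = 0.0107, adjusted p = 0.167, 95% interval -0.97 to -0.16), *Cry2* of -0.41 (SE 0.156, adjusted p = 0.201) and *Cry1* of -0.53 (SE 0.215, adjusted p = 0.226). *Nr1d2* (-0.30, adjusted p = 0.272) and *Per2* (-0.48, adjusted p = 0.28) also had an unadjusted p under 0.05. Thus 5 of 10 members did so, against 17.8% of all genes, and 0 had an adjusted p under 0.05, against 0.078% of all genes and 4.06% by DESeq2. Several of these 5 genes vary together from heart to heart, so they are not independent of each other. *Cry2* passed when F3-KO TAC replicate 3 was left out (-0.56, adjusted p = 0.0348). That fit called 849 of all genes, against 11 with every heart. In all, 8 members were lower and 2, *Arntl* and *Clock*, were higher after TAC, with a median log2 difference of -0.36 over the members and 0.00 over all genes. *Dbp* differed by -0.56 (adjusted p = 0.338) and *Arntl* by 0.49, with an interval of -0.60 to 1.59 that leaves room for a difference in either direction.

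In WT hearts alone TAC gave 0 members with an unadjusted p under 0.05 (6.28% of all genes) and 0 called (0% of all genes by edgeR, 0.164% by DESeq2). *Nr1d1* had a log2 difference of -0.73 (adjusted p = 0.796), *Per3* of -0.53 (adjusted p = 0.792) and *Nr1d2* of -0.39 (adjusted p = 0.782). *Cry2* and *Nr1d1* did not overlap between WT TAC and WT sham hearts, 2 of 10 members against 9.1% of all genes. *Clock* differed by -0.02 (interval -0.35 to 0.32), which bounds its change more tightly than that of *Arntl* (0.44, interval -1.11 to 1.98).

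In F3-KO hearts TAC gave 4 of 10 members with an unadjusted p under 0.05, against 17.1% of all genes, and 0 called (0% by edgeR, 3% by DESeq2). *Clock* was higher by 0.46 on the log2 scale (SE 0.153, adjusted p = 0.189). *Per2* differed by -0.90 (SE 0.309, adjusted p = 0.196), *Cry1* by -0.81 (SE 0.304, adjusted p = 0.219) and *Per3* by -0.60 (SE 0.265, adjusted p = 0.275). *Clock*, *Per1* and *Dbp* did not overlap between the groups, 3 of 10 members against 22.9% of all genes. F3-KO sham replicate 1 lay inside the F3-KO TAC range for both *Per2* and *Cry1*, and the high F3-KO sham hearts were replicates 2 and 3, which were low in *Nr1d1*.

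Markers of other cell types also differed in range between sham and TAC hearts. The 6 fibroblast markers, all detected, summed to 698 to 1550 CPM in WT sham, 968 to 1330 in F3-KO sham, 1290 to 3250 in WT TAC and 1460 to 7500 in F3-KO TAC hearts. The 5 macrophage markers, all detected, summed to 205 to 454, 295 to 352, 349 to 549 and 414 to 715 CPM in the same order. For both lists the F3-KO groups did not overlap and the WT groups did. Of all single genes, 22.9% did not overlap between the F3-KO groups. Cardiomyocyte markers summed to 50900 to 68700, 67500 to 74500, 55000 to 78400 and 44500 to 57000 CPM, so that the F3-KO groups did not overlap and the WT groups did. The 5 red blood cell markers, all detected, summed to 656 to 1740, 1070 to 4490, 299 to 4360 and 366 to 979 CPM, again without overlap between the F3-KO groups, and the 5 endothelial markers to 1250 to 1670, 1510 to 2130, 1090 to 2420 and 1140 to 2390 CPM. Their part in the clock gene differences was not tested, and in whole hearts fewer cells of a type cannot be told apart from less RNA per cell.

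Between genotypes the sham hearts gave 1 member with an unadjusted p under 0.05, against 6.02% of all genes, and 0 called (0.106% by edgeR, 0.66% by DESeq2). It was *Nr1d1*, with a log2 difference of F3-KO minus WT of -0.95 (SE 0.387, adjusted p = 0.761, interval -1.80 to -0.11). Without F3-KO sham replicate 1, the heart whose *Nr1d1* was like WT, the difference was -1.75 and passed (adjusted p = 0.0356), so this heart decides the call. That fit called 6 of all genes, against 15 with every heart. No member was free of overlap here, against 13.7% of all genes.

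In TAC hearts *Per1* (-0.54, SE 0.217, adjusted p = 0.474) and *Clock* (0.34, SE 0.153, adjusted p = 0.497) had an unadjusted p under 0.05 between genotypes, 2 of 10 members against 10% of all genes, and 0 were called (0.078% by edgeR, 0.594% by DESeq2). The same 2 genes did not overlap between the groups, against 11.4% of all genes. Over both surgeries 0 members had an unadjusted p under 0.05 (10.1% of all genes) and 0 were called (0.412% by edgeR, 1.4% by DESeq2). The smallest adjusted p there, 0.574, was that of *Cry2* (-0.27). For the difference of the TAC effect between genotypes, *Clock* alone had an unadjusted p under 0.05 (0.48, SE 0.217, adjusted p = 0.954), against 4.48% of all genes, and 0 members were called (0% by edgeR, 0.0313% by DESeq2). The comparisons share their sham or TAC hearts with each other and are not independent.

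**Figure D3:**
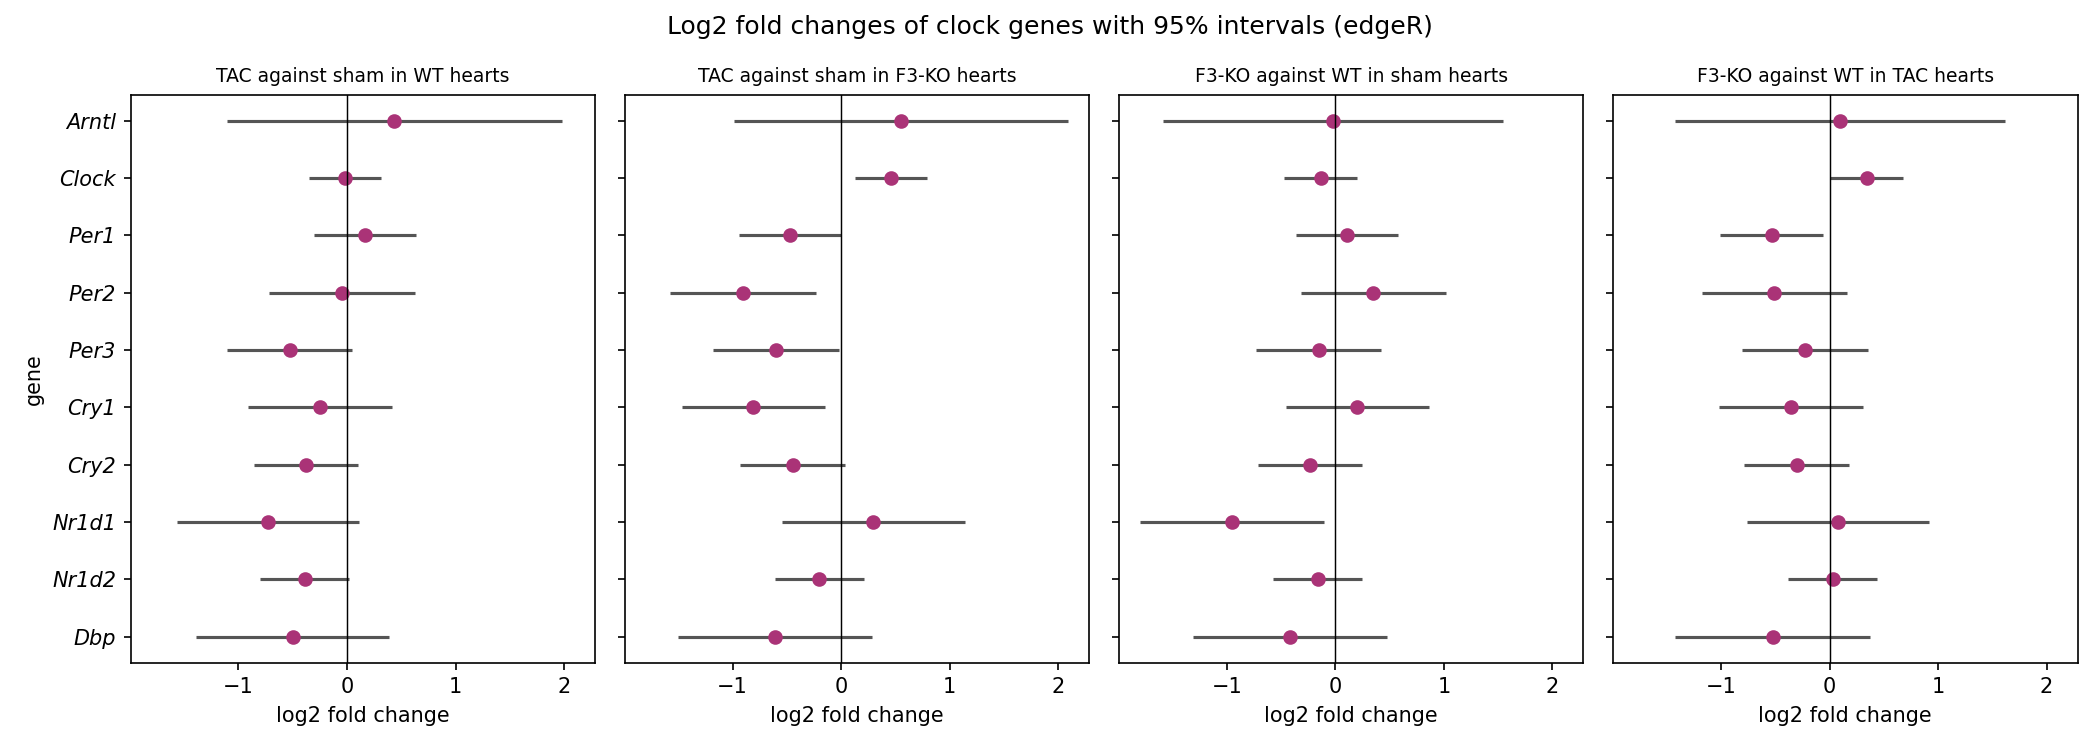
Log2 fold change (horizontal axis) of each clock gene in the 4 comparisons of 2 groups, with points for edgeR's estimate and lines for the 95% interval. The intervals of *Arntl* are the widest, from -1.11 to 1.98 for TAC in WT hearts, and no gene had an adjusted p under 0.05.

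Of the 9 other members, 3 correlated with *Arntl* past the threshold by Pearson's r. Over the 12 hearts *Clock* followed *Arntl* (Pearson's r = 0.834, permutation p = 0.0012, adjusted p = 0.0101 over 9 pairs, Spearman's rho = 0.797, permutation p = 0.00291, adjusted p = 0.0194). *Per3* went against *Arntl* (r = -0.803, permutation p = 0.00225, adjusted p = 0.0101, rho = -0.776, permutation p = 0.00431, adjusted p = 0.0194). *Dbp* did so as well (r = -0.731, permutation p = 0.00856, adjusted p = 0.0257, rho = -0.692, permutation p = 0.0156, adjusted p = 0.0453). Without the 2 hearts farthest from the median of *Arntl*, WT TAC replicate 2 and F3-KO sham replicate 3, r was 0.713 for *Clock*, -0.83 for *Per3* and -0.663 for *Dbp*.

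Inside the groups the relation passed for *Clock*, *Per3* and *Cry2*. For deviations from the group means r was 0.931 for *Clock* (exact permutation p = 0.00386, adjusted p = 0.0174), -0.897 for *Per3* (exact permutation p = 0.00617, adjusted p = 0.0185) and -0.46 for *Cry2* (exact permutation p = 0.00386, adjusted p = 0.0174). For *Dbp* it was -0.736 (exact permutation p = 0.0231, adjusted p = 0.0521), just short of the threshold. Over all hearts the call for *Dbp* was lost when WT sham replicate 3, WT TAC replicate 1, WT TAC replicate 2 or F3-KO TAC replicate 1 was left out, where r was -0.653 to -0.71 and the adjusted permutation p 0.0514 to 0.0736. Of the other members, *Cry1* had r = -0.643 (permutation p = 0.0273, adjusted p = 0.0615) and *Per2*, *Cry2* and *Nr1d2* had r of -0.546, -0.515 and -0.518, each with an adjusted p of 0.108. By Spearman's rho 3 of these 4 passed, *Cry1* at -0.636, *Cry2* at -0.643 and *Nr1d2* at -0.643, each with an adjusted permutation p of 0.0453, and *Per2* did not (rho = -0.552, adjusted p = 0.086). *Nr1d1* (r = 0.266) and *Per1* (r = -0.0415) showed no relation that these hearts could resolve.

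Among the other pairs, given as descriptions, *Per2* and *Cry1* had r = 0.916 over the 12 hearts and 0.883 for deviations from the group means. *Per2* and *Nr1d1* had r = -0.571 over the 12 hearts and -0.813 for deviations from the group means, and *Cry1* and *Nr1d1* had r = -0.449 and -0.682. F3-KO sham replicates 2 and 3 were high in *Per2* and *Cry1* and low in *Nr1d1*, whereas WT sham replicate 2 had 59 CPM of *Per2* and 20.3 CPM of *Cry1* with 128 CPM of *Nr1d1*. *Clock* had r = -0.727 with *Per2*, -0.733 with *Cry1* and -0.655 with *Dbp* over the 12 hearts. *Per3* had r = 0.796 with *Dbp*, 0.795 with *Cry2*, 0.787 with *Nr1d2* and 0.65 with *Per2*.

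**Figure D4:**
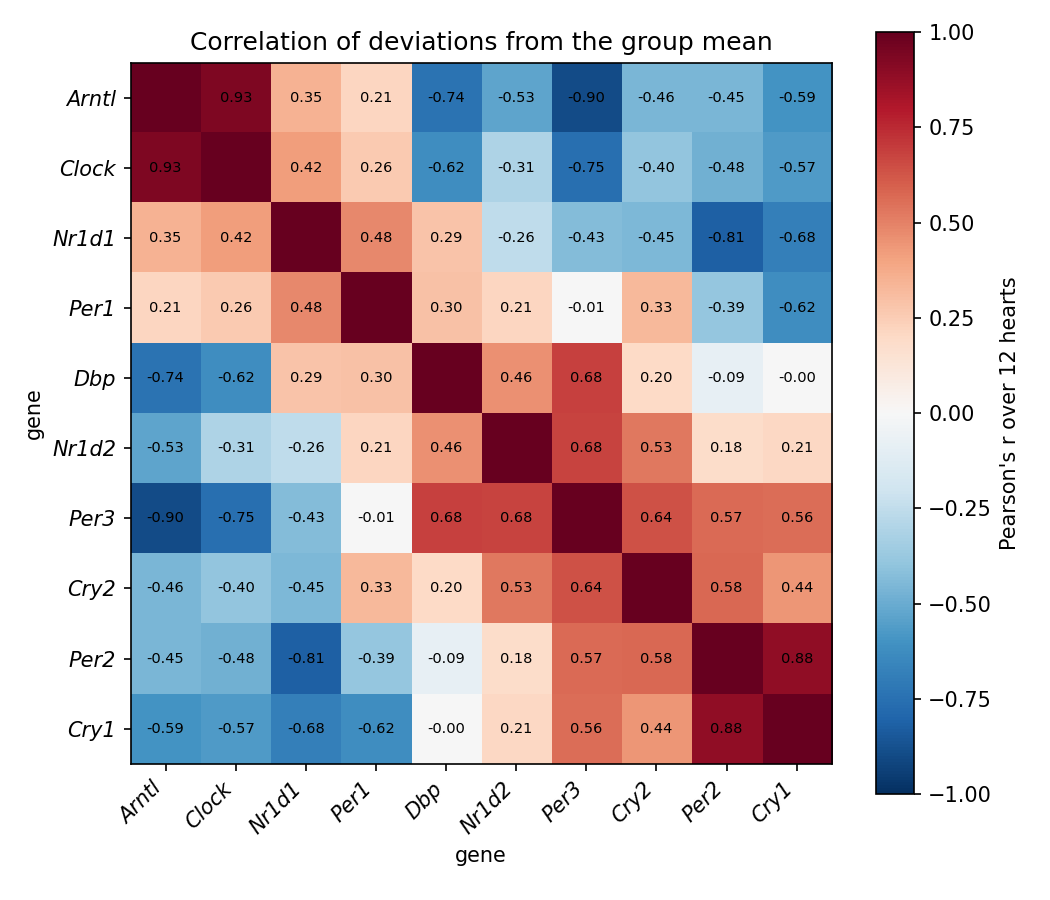
Pearson's r between clock genes over the 12 hearts (colour and printed value), computed on deviations of log2 CPM from the group means, with genes on both axes. *Arntl* and *Clock* are positive with each other (0.931) and negative with *Per3* and *Dbp*, and *Per2* and *Cry1* are positive with each other (0.883).

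The ratio of *Dbp* to *Arntl* counts inside a heart does not depend on library scaling. It was 24.9, 6.09 and 53.4 in WT sham, 7.11, 23.5 and 36.9 in F3-KO sham, 2.91, 78.4 and 8.29 in WT TAC, and 4.92, 9.55 and 5.48 in F3-KO TAC hearts. Both the lowest and the highest ratio were thus found among WT TAC hearts. On the log2 scale the groups stood at 4.33 ± 1.59 (SD, n = 3), 4.20 ± 1.23, 3.63 ± 2.43 and 2.67 ± 0.51 in the same order, so that the group means differed by no more than the SD of the widest group. The F3-KO TAC hearts had the narrowest range.

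The ratio of *Nr1d1* to *Per2* counts singled out other hearts. It was 4.83, 2.17 and 4.33 in WT sham, 2.57, 2.15 and 1.88 in WT TAC, and 5.56, 3.67 and 1.86 in F3-KO TAC hearts. In F3-KO sham hearts it was 4.53 in replicate 1 but 0.79 and 0.589 in replicates 2 and 3, the only hearts below 1. No set of hearts of known hour was at hand, so no time of day was assigned to any heart from these ratios.

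**Figure D5:**
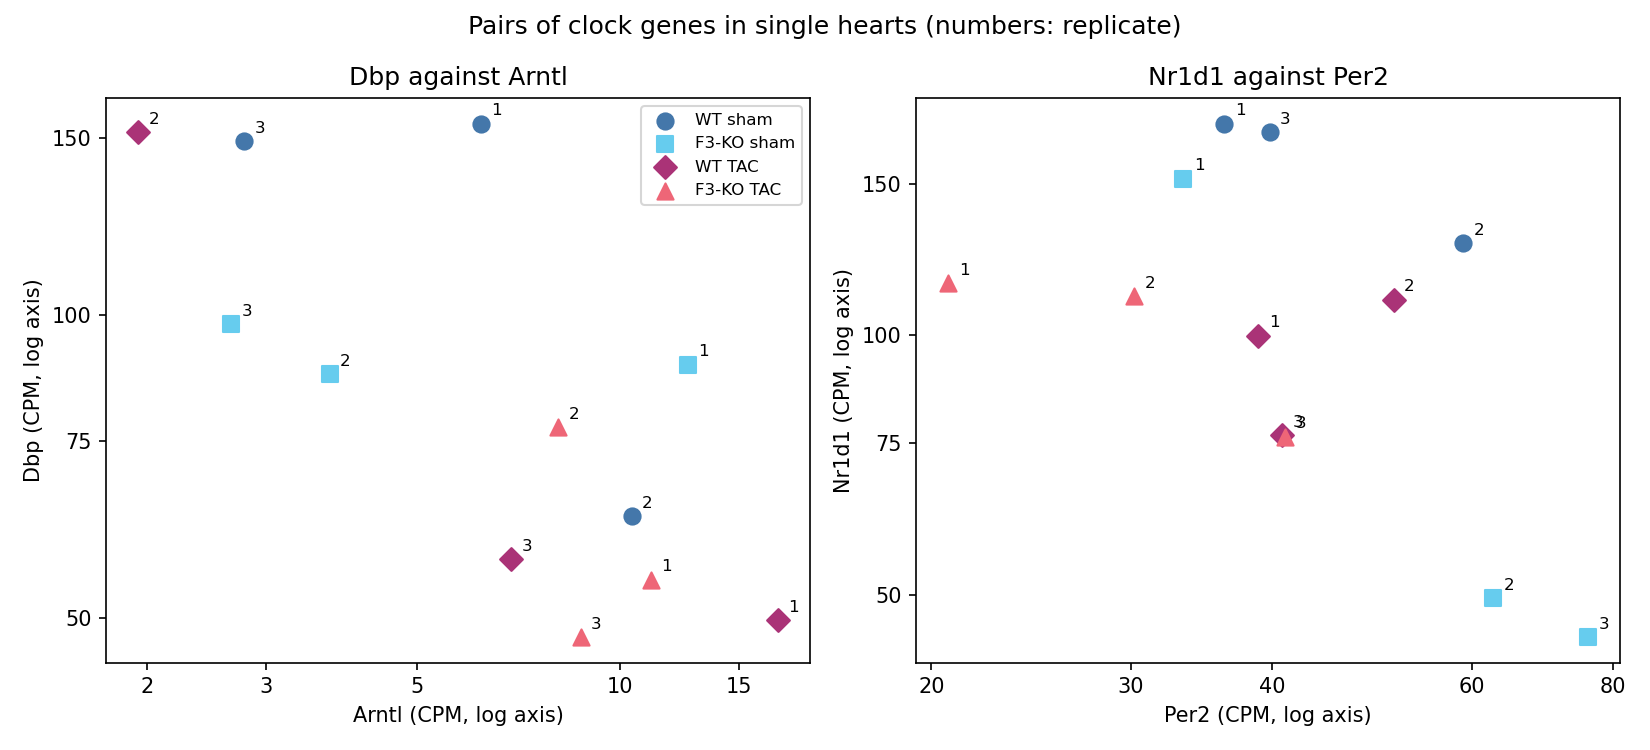
Levels of 2 pairs of clock genes in the 12 hearts (CPM, log axes), *Dbp* against *Arntl* and *Nr1d1* against *Per2*, with colour and shape for the group and numbers for the replicate. Hearts of 1 group lie far apart on the left, with WT TAC replicates 1 and 2 at opposite ends, and F3-KO sham replicates 2 and 3 lie apart on the right.

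Of the genes around the loop, none of the 11 other core clock and loop genes, all tested, passed in any comparison by edgeR or limma. At most 2 of 11 had an unadjusted p under 0.05 in 1 comparison. This number was reached for TAC over both genotypes (17.8% of all genes), TAC in F3-KO hearts (17.1%), F3-KO against WT in TAC hearts (10%) and the difference of the TAC effect (4.48%). DESeq2 called *Timeless* for TAC in F3-KO hearts, and *Hlf* in that comparison and for TAC over both genotypes. *Hlf*, a PAR bZIP factor related to *Dbp*, stood at 54.5, 47.4 and 52 CPM in WT sham, 33.6, 60.3 and 67.6 in F3-KO sham, 25.1, 57.1 and 37.8 in WT TAC, and 21.9, 21.8 and 30.4 in F3-KO TAC hearts. Its log2 difference for TAC in F3-KO hearts was -1.12 (SE 0.297, adjusted p = 0.175). *Timeless*, with a role in DNA replication, differed by 0.94 (SE 0.204, adjusted p = 0.172) in the same comparison. Over the 12 hearts *Hlf* had r = -0.773 and *Tef*, another PAR bZIP factor, r = -0.719 with *Arntl*, while *Npas2*, a paralog of *Clock*, had r = 0.563 with it and *Ciart*, a repressor of the loop, r = 0.708 with *Dbp*.

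The 10 clock protein modifiers and the 13 clock outputs had 0 genes called by edgeR and limma, with at most 1 and 6 at an unadjusted p under 0.05 in 1 comparison. Both numbers were reached for TAC over both genotypes, where 17.8% of all genes had such a p, and of the 6 outputs 2 were higher and 4 lower. DESeq2 called *Csnk1e*, *Kcnip2*, *Usp2* and *Dgat2* for TAC in F3-KO hearts, *Kcnip2* for TAC over both genotypes and *Kcnh2* between genotypes over both surgeries. *Csnk1e*, a kinase that marks PER proteins for breakdown, differed by -0.42 (SE 0.113, adjusted p = 0.175) for TAC in F3-KO hearts, and *Fbxl21*, a ubiquitin ligase subunit for CRY proteins, by 0.95 (SE 0.48, adjusted p = 0.319) for TAC over both genotypes at mean levels of 0.49 to 1.19 CPM. *Kcnip2*, the subunit of the transient outward potassium current, stood at 334 ± 25.1 CPM (SD, n = 3) in F3-KO sham and 145 ± 11.6 in F3-KO TAC hearts, a log2 difference of -1.20 (SE 0.256, adjusted p = 0.172). *Kcnh2*, a potassium channel of repolarization, differed by -0.44 (SE 0.115, adjusted p = 0.2) between genotypes over both surgeries. For the difference of the TAC effect between genotypes 13 of 13 outputs had a negative value, with a median log2 value of -0.60 against 0.03 over all genes. None of the 13 had an adjusted p below 0.954 there. In F3-KO hearts 11 of 13 were lower after TAC, with a median of -0.30 against 0.02, and in WT hearts 7 of 13. *Pdk4* and *Cdkn1a* were higher after TAC in both genotypes, by 1.8 and 1.53 in WT and by 0.431 and 0.215 in F3-KO hearts. The 13 outputs were measured in the same hearts and are not independent of each other.

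Genes that respond to handling or temperature were read beside the clock genes, since the *Per* genes are known to respond to such signals. Of 15 glucocorticoid and acute response genes and 8 temperature genes, 0 were called in any comparison by edgeR or limma, with at most 4 and 1 at an unadjusted p under 0.05 in 1 comparison. Both numbers were reached for TAC over both genotypes (17.8% of all genes), for TAC in F3-KO hearts (17.1%) and for the difference of the TAC effect (4.48%). DESeq2 called *Sgk1* for TAC in F3-KO hearts and *Dusp1* for TAC over both genotypes. *Sgk1*, a glucocorticoid-induced kinase, had a difference of the TAC effect between genotypes of -1.17 (SE 0.307, adjusted p = 0.954), and *Dusp1*, a stress-induced phosphatase, a log2 difference of -0.46 (SE 0.121, adjusted p = 0.11) for TAC over both genotypes. *Rbm3*, an RNA-binding protein induced by cold, differed by 0.67 (SE 0.177, adjusted p = 0.76) for TAC in WT hearts and by 0.133 in F3-KO hearts. For TAC in WT hearts 3 of the 8 temperature genes were higher and 5 lower. *Hsp90aa1*, a heat shock chaperone, had a difference of the TAC effect of 0.90 (SE 0.304, adjusted p = 0.954). Only 2 of the 8 temperature genes had a positive value there and 6 a negative one, with a median of -0.342. Their part in the clock gene values was not tested.

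Finally, 13408 genes with a mean of at least 1 CPM were ranked by how closely their log2 CPM followed a member over the 12 hearts. The 5 most like *Dbp* were *Pik3c2b* (r = 0.95), *Ano8* (0.922), a gene known only as BGIG10090_47731 (0.907), *Dedd2* (0.904) and *Slc26a6* (0.897). The 5 most like *Arntl* were *Gmfg* (r = 0.904), *Cntrl* (0.894), *Adgrg3* (0.89), *Syt17* (0.875) and *Rhoj* (0.866). These values are the top of a long ranking over few hearts and carry no test.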

How the data were processed

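RNA was sequenced from 12 mouse hearts, 3 per group, and samples were grouped by their labels as independent biological replicates. The authors deposited estimated counts per gene, not normalized, of which 40.6% were not whole numbers. Per the study's supplementary methods, they filtered reads with SOAPnuke, mapped them with HISAT2 2.0.4 and STAR 2.3.0 and tested genes with DESeq2. The submitters' processing notes name the builds mm8 and mm9 without saying which served for what. The counting tool and strand setting are not given in the sources used here, so reads of overlapping genes may not be told apart. For 11 of 11 hearts compared, a separate table equalled the joint table, and that of WT sham replicate 2, which breaks off early, was not used.

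The plan allowed for estimated counts, and these were rounded to whole numbers before testing. R 4.3.3 was used with edgeR 4.0.16 (filterByExpr, minimum count 10, TMM factors 0.931 to 1.09, quasi-likelihood fit of the 4 groups, 8 residual degrees of freedom). The genes left out held 0.0773% of all counts. P-values were adjusted by Benjamini-Hochberg over 14094 genes at 0.05. Log2 CPM used a prior count of 2. Correlations over hearts used 100000 permutations, or all arrangements within groups (exact), and were two-sided. Depth sets a floor of 3 counts, which every member exceeded in every heart. The procedure was tested on simulated data for F3-KO against WT in TAC hearts. There edgeR recovered 54% of log2 changes of -1 and 42% of log2 changes of 1. Of log2 changes of -2 and of 2 it recovered 100%, and 12 unchanged genes were called. Recovery at the spread of each single member was not tested.

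Alternatives were DESeq2 1.42.0, limma 3.58.1, other scaling, filters, prior counts and thresholds, fits of 2 groups, the replicate number as a block, and leaving out each heart. The members and lists were chosen with earlier results of these data known. Named genes were the 10 members, *Fabp3*, from each of 5 lists up to 5 called genes or else the 2 with the smallest unadjusted p, and the 5 genes most like *Dbp* and like *Arntl*. Other loop genes, genes overlapping a member and genes called by DESeq2 alone were named in addition, after their values were seen.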

Additional observations from a re-analysis of the deposited data

How the results depend on the processing

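Precision differed between members: for TAC in WT hearts the 95% interval of the log2 difference was -1.11 to 1.98 for *Arntl* and -0.35 to 0.32 for *Clock*, so that a difference of 1 log2 unit lay inside the interval of *Arntl* and outside that of *Clock*. In the alternatives other than leaving out a heart (DESeq2 and limma at 0.05, other scaling, filters and fits of 2 groups, and a threshold of 0.1 for edgeR), 0 members were called in any comparison. By DESeq2 the smallest adjusted p-values were 0.072 for *Per3* (TAC over both genotypes) and 0.0865 for *Per2* (TAC in F3-KO hearts). These are under 0.1 but not under 0.05. Leaving out 1 heart at a time, the number of members called ranged from 0 to 1 for F3-KO against WT in sham hearts (*Nr1d1* without F3-KO sham replicate 1) and from 0 to 1 for TAC over both genotypes (*Cry2*, -0.56, adjusted p = 0.0348, without F3-KO TAC replicate 3, a fit that called 849 of all genes against 11 with every heart), and the number correlated with *Arntl* ranged from 2 to 5 (5 without WT sham replicate 2, where *Cry1* and *Per2* were added). The fit with the replicate number as a block called 0 members in each comparison. Its smallest adjusted p was 0.11 for TAC over both genotypes and 0.145 for TAC in F3-KO hearts. Deviations of same-numbered hearts correlated at -0.141 to 0.362 over 18 pairs, 4 above 0.1. Those of differently numbered hearts correlated at -0.359 to 0.196 over 36 pairs, 2 above 0.1. The main fit did not pair hearts by number. The labels do not say whether same-numbered hearts were collected or processed together, and this was not tested. The sign of a few small differences, none of them called, changed with the setting, and the cause was not tested. With library totals alone in place of TMM, the difference of the TAC effect between genotypes was 0.0516 for *Per3*, 0.0376 for *Cry2* and 0.0234 for *Dbp*, and r of *Per1* with *Arntl* was 0.0467. With the replicate block that difference was 0.0029 for *Per3*.

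Leaving out 1 heart at a time, the following log2 differences crossed 0. For F3-KO against WT in TAC hearts, values ran from -0.375 to 1.08 for *Arntl*, -0.803 to 0.164 for *Dbp*, -0.0607 to 0.239 for *Nr1d1*, -0.131 to 0.15 for *Nr1d2* and -0.426 to 0.0624 for *Per3*. For F3-KO against WT in sham hearts, values ran from -1.01 to 0.503 for *Arntl*, -0.00458 to 0.437 for *Cry1*, -0.297 to 0.0176 for *Nr1d2*, -0.0873 to 0.334 for *Per1* and -0.305 to 0.0538 for *Per3*. For F3-KO against WT over both surgeries, values ran from -0.455 to 0.531 for *Arntl*, -0.19 to 0.0399 for *Cry1*, -0.147 to 0.0216 for *Nr1d2* and -0.214 to 0.0557 for *Per2*. For TAC against sham in WT hearts, values ran from -0.552 to 0.958 for *Arntl*, -0.107 to 0.0959 for *Clock*, -0.0246 to 0.396 for *Per1* and -0.179 to 0.196 for *Per2*. For the difference of the TAC effect between genotypes, values ran from -0.407 to 1.11 for *Arntl*, -0.355 to 0.149 for *Cry2*, -0.387 to 0.58 for *Dbp* and -0.28 to 0.216 for *Per3*. For TAC against sham in F3-KO hearts, values ran from -9.36e-05 to 1.09 for *Nr1d1*. For TAC against sham over both genotypes, values ran from -0.366 to 0.181 for *Nr1d1*. The correlation of *Per1* with *Arntl* ran from -0.313 to 0.117.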
